A study of Mus musculus with 20 samples.

Results

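Platelet and megakaryocyte genes were followed in whole lung of mice given house dust mite extract. The set holds 9 genes of the 24054 in the table, Clec1b, P2rx1, Itga2b, Gp9, Gp1bb, Gp6, Treml1, Ppbp and Pf4, picked by gene symbol. It was put together because Clec1b and P2rx1 had responded to dust mite differently by genotype label in these same libraries, so the difference between their responses is described here and not tested. RNA of female C57Bl6 lungs gave 20 libraries, which form 4 groups of 5 biological replicates. KO_HDM and KO_saline are mice labelled Alox15 knockout that received house dust mite extract (HDM), an inhaled allergen, or saline. WT_HDM and WT_saline are wild-type mice that received the same. HDM went into the nose every day for 14 days, and the labels describe neither the Alox15 allele nor the age of the mice.

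Platelets are cell fragments without a nucleus that are shed by megakaryocytes, large cells of the bone marrow that are also found in the lung. They carry RNA made in the megakaryocyte, so lung tissue that holds blood, trapped platelets or resident megakaryocytes yields these transcripts. Platelets stick to exposed collagen and von Willebrand factor through surface glycoproteins, are triggered by ADP, ATP, thrombin and podoplanin, and release chemokines from their granules.

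The label check went against the labels. Alox15, the lipoxygenase gene named as knocked out, had 35.0 to 45.5 CPM (counts scaled to the library's total) in KO_HDM, 38.4 to 44.7 in KO_saline, 7.92 to 29.8 in WT_HDM and 0.825 to 11.1 in WT_saline, so it was highest in the libraries labelled knockout. Without knowing which exons were deleted, these counts do not show whether the protein was made, and every statement on genotype below refers to the label. Libraries held 12573113 to 23305673 counts, and 1 CPM corresponded to 12.9 to 23.0 counts. The fat-cell gene Adipoq reached 50 CPM or more in 1 KO_HDM, 2 WT_HDM and 2 WT_saline libraries and in none of KO_saline. In whole-lung RNA, fewer cells of a type and less RNA per cell cannot be told apart.

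All 9 genes passed the filter on low counts, which kept 16193 genes. Clec1b, P2rx1, Itga2b, Ppbp and Pf4 exceeded the filter's level of 0.507 CPM in every library. Gp6 exceeded it in all 10 saline libraries and in none of the 10 HDM libraries, so it entered the test through the groups in which it was high. Treml1 exceeded it in all saline libraries, in 4 KO_HDM and in 3 WT_HDM libraries. For Gp1bb these were 4 KO_HDM and 2 WT_HDM libraries, and for Gp9 2 KO_HDM and 4 WT_HDM libraries, again with all saline libraries. The test needed 5 libraries past that level, which the HDM libraries alone supplied for each of these 3 genes but not for Gp6.

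Promoters are shown for the 5 genes on which the results turn, as the 250 bases before the start of the RefSeq gene on mouse assembly GRCm38.p6, which need not be the build the authors used. Clec1b and P2rx1 are the pair with different responses. Itga2b stands for the genes that fell, and Ppbp and Pf4 are neighbours on chromosome 5 with no protein-coding gene between them that moved in opposite directions. Capitals mark AGATAA or TGATAA, motifs bound by GATA factors, and AGGAAG or CGGAAG, motifs bound by ETS factors. Both strands were searched, no matches overlapped, and both families contain regulators of megakaryocyte genes. The intervals are chr6:129397047-129397296 for Clec1b (plus strand), chr11:72998895-72999144 for P2rx1 (plus), chr11:102469884-102470133 for Itga2b (minus), chr5:90768268-90768517 for Ppbp (plus) and chr5:90772185-90772434 for Pf4 (plus).
Clec1b: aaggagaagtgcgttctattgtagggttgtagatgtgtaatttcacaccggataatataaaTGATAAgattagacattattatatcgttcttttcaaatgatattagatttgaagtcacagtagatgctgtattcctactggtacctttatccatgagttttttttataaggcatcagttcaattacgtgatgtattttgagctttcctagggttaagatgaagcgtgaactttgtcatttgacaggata
P2rx1: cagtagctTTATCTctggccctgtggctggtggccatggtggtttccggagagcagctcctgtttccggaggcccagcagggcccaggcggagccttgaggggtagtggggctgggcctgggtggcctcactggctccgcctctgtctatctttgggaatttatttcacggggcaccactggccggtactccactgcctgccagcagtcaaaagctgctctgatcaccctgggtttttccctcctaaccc
Itga2b: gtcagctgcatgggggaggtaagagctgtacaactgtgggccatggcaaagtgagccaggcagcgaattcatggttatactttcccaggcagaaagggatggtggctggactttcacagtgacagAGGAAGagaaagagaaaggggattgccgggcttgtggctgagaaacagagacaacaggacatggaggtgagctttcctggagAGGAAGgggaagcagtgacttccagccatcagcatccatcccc
Ppbp: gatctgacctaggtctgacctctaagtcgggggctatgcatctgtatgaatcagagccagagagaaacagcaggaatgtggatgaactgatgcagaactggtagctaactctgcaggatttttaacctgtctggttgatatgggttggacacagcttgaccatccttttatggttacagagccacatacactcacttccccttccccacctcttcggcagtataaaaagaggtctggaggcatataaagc
Pf4: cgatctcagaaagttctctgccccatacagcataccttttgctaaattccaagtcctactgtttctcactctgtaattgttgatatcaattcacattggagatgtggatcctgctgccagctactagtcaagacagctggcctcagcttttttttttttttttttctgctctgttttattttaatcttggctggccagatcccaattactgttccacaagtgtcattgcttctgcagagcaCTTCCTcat
Clec1b and P2rx1 held a GATA motif each, at positions -189 and -242 from the gene start, and no ETS motif. Among the 9 genes, 3 held a GATA motif, the other being Gp6, against 16.6% of 32851 promoters of the same length. ETS motifs were in 4 of the 9, Itga2b, Gp9, Gp1bb and Pf4, against 39.2% of all promoters. Itga2b held 2 of them and Ppbp none of either kind. No promoter of the 9 held both kinds, which 5.49% of all promoters did. These matches describe letters in the window and nothing about binding.

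Among the receptors, Clec1b encodes the platelet receptor for podoplanin, which signals through the kinase Syk. Its level was 4.80, 5.26, 4.72, 4.96 and 4.96 CPM in KO_HDM (replicates 1 to 5), against 4.74, 6.43, 4.31, 7.39 and 6.56 CPM in KO_saline. In wild type it was 14.9, 9.98, 14.1, 6.41 and 10.2 CPM in WT_HDM, against 5.39, 4.35, 5.00, 4.97 and 4.85 CPM in WT_saline. All 5 WT_HDM libraries lay above all 5 WT_saline libraries, while the groups labelled knockout overlapped, and the KO_HDM libraries lay closest together of all 4 groups. The fitted log2 change with HDM was -0.25 ± 0.18 (SE) in mice labelled knockout and 1.17 ± 0.18 in wild type, a difference between the labels of -1.43 ± 0.26 (knockout minus wild type). These 2 changes and their difference chose the gene and carry no test. The share of counts on the ribosomal RNA gene Rn45s was also highest in the WT_HDM group, at 1.82% to 2.98% in KO_HDM, 1.21% to 2.26% in KO_saline, 2.72% to 6.08% in WT_HDM and 1.47% to 3.47% in WT_saline; its part in the levels of Clec1b and P2rx1 was not tested.

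P2rx1 encodes an ATP-gated cation channel of platelets and smooth muscle. It had 1.55, 1.51, 1.56, 2.26 and 1.89 CPM in KO_HDM, against 3.30, 2.87, 2.38, 4.70 and 3.37 CPM in KO_saline. WT_HDM libraries had 3.21, 3.77, 4.12, 3.46 and 4.01 CPM, against 2.48, 2.95, 2.45, 1.47 and 2.36 CPM in WT_saline. Every KO_HDM library lay below every KO_saline library, and every WT_HDM library lay above every WT_saline library, so the direction differed by label. Its log2 change with HDM was -0.92 ± 0.20 in mice labelled knockout and 0.67 ± 0.20 in wild type, a difference of -1.59 ± 0.28, again a description. P2rx1 lies on chromosome 11 with 57 protein-coding genes between it and Alox15.

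Averaged over both genotype labels, a contrast that does not use the difference that chose them, Clec1b was higher with HDM by 0.46 ± 0.13 on the log2 scale (edgeR adjusted p = 0.005182). The contrast shares its libraries and their spread with that difference, and the rise came from wild type alone. A gene is said to be called, or to have risen or fallen, where edgeR's quasi-likelihood test gave a p under 0.05 after Benjamini-Hochberg adjustment over all 16193 genes. P2rx1 did not pass, at -0.13 ± 0.14 (edgeR adjusted p = 0.4458). Under HDM, both genes were lower in all KO_HDM libraries than in all WT_HDM libraries, by a log2 change of -1.17 ± 0.18 for Clec1b and -1.08 ± 0.20 for P2rx1. Under saline the libraries labelled knockout and wild type overlapped, at 0.26 ± 0.18 for Clec1b and 0.51 ± 0.19 for P2rx1. Without the 5 libraries with 50 CPM or more of Adipoq, the difference between the HDM responses was -1.62 for Clec1b and -1.60 for P2rx1. The counts of Clec1b may take in reads of Clec12b, whose RefSeq gene overlaps it, since the dUTP libraries keep strand but the sources used here do not give the strand setting of the counting. Clec12b had 0.778 to 1.39 CPM in KO_HDM, 0.308 to 1.87 in KO_saline, 0.896 to 2.33 in WT_HDM and 1.56 to 7.17 in WT_saline. Its part in the counts of Clec1b was not tested.

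**Figure D1:**
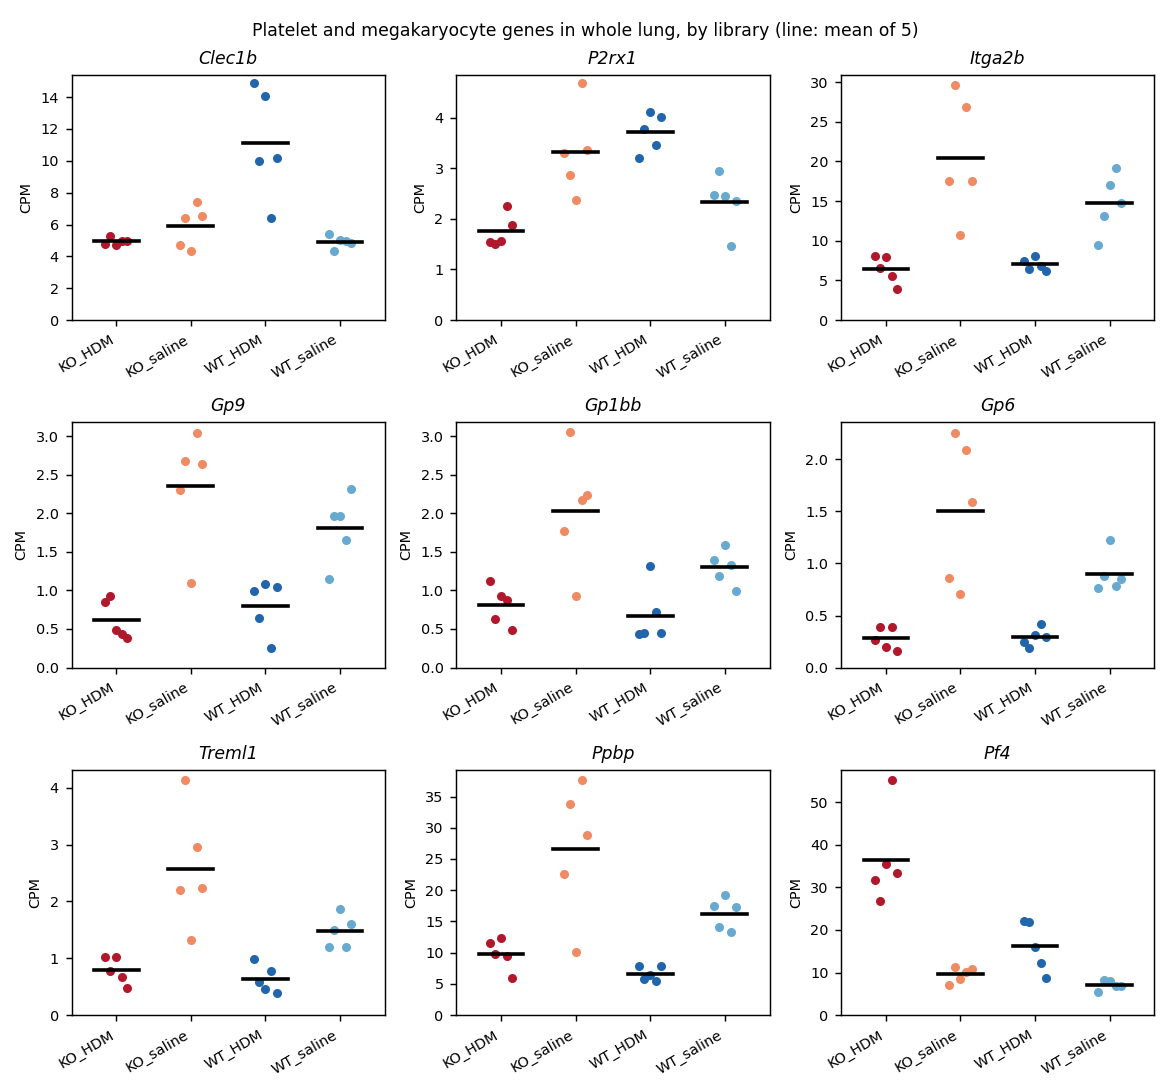
Level of each of the 9 genes in every library (CPM, 1 panel per gene, axes starting at 0), with points for libraries and a line for the mean of 5; groups run KO_HDM, KO_saline, WT_HDM, WT_saline. Clec1b stands out in WT_HDM alone, Pf4 is high in both HDM groups, and Itga2b, Gp9, Gp1bb, Gp6, Treml1 and Ppbp are low in both.

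The surface glycoproteins fell with HDM under both labels. Itga2b encodes the alpha chain of the platelet fibrinogen receptor, a defining marker of the megakaryocyte lineage. It had 8.11, 6.53, 7.93, 5.57 and 3.93 CPM in KO_HDM, against 17.5, 29.7, 10.7, 26.9 and 17.6 CPM in KO_saline. WT_HDM libraries had 7.48, 6.46, 8.08, 6.88 and 6.14 CPM, against 9.46, 13.2, 17.1, 19.2 and 14.7 CPM in WT_saline. HDM and saline libraries did not overlap under either label. Itga2b was 3.19-fold lower with HDM in mice labelled knockout (log2 change -1.67 ± 0.25, edgeR adjusted p = 1.907e-05) and 2.11-fold lower in wild type (-1.07 ± 0.25, adjusted p = 0.002973).

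Gp9 and Gp1bb encode subunits of the receptor for von Willebrand factor. Gp9 averaged 0.617 ± 0.253 CPM in KO_HDM and 2.35 ± 0.748 CPM in KO_saline (SD, n = 5 each). In wild type it averaged 0.803 ± 0.352 CPM with HDM and 1.81 ± 0.438 CPM with saline (SD, n = 5 each). The HDM and saline libraries of Gp9 did not overlap under either label, and its log2 change was -1.92 ± 0.35 in mice labelled knockout (edgeR adjusted p = 0.0001716) and -1.18 ± 0.35 in wild type (adjusted p = 0.01601). Without the libraries high in Adipoq, the wild-type change of Gp9 was -0.82 and did not pass (edgeR adjusted p = 0.1468).

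Gp1bb averaged 0.809 ± 0.251 CPM in KO_HDM and 2.03 ± 0.774 CPM in KO_saline, and 0.674 ± 0.382 CPM in WT_HDM and 1.30 ± 0.227 CPM in WT_saline (SD, n = 5 each). It overlapped between HDM and saline under both labels. The log2 change was -1.32 ± 0.33 in mice labelled knockout (edgeR adjusted p = 0.002356) and -0.97 ± 0.34 in wild type (adjusted p = 0.03959). The wild-type call was lost in 10 of 20 fits that left out a library, with adjusted p from 0.05043 to 0.1096. Gp1bb was also the least certain of the 9 in its counting: its expected counts had a fraction in all 20 libraries, where those of the other 8 were whole within 0.005, and its RefSeq gene overlaps Septin5. That neighbour, listed as Sept5, changed by -0.41 ± 0.17 in mice labelled knockout (edgeR adjusted p = 0.04724) and -0.53 ± 0.17 in wild type (adjusted p = 0.02235).

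Gp6 encodes the collagen receptor of platelets and was the lowest of the set in counts, with 3 to 8 in each HDM library of both labels. Saline libraries held 16 to 48 counts in KO_saline and 12 to 23 in WT_saline. Its levels were 0.162 to 0.390 CPM in KO_HDM, against 0.704 to 2.25 CPM in KO_saline, and 0.192 to 0.414 CPM in WT_HDM, against 0.762 to 1.22 CPM in WT_saline. No HDM library reached any saline library. The fitted level of Gp6 with HDM was 5.27-fold lower in mice labelled knockout (log2 change -2.40 ± 0.35) and 3.01-fold lower in wild type (-1.59 ± 0.36). Because it passed the filter through its saline libraries alone, these changes are given without a test.

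Treml1 encodes a receptor of the alpha granule membrane that reaches the surface of activated platelets. It had 0.485 to 1.02 CPM in KO_HDM, against 1.32 to 4.13 CPM in KO_saline, and 0.396 to 0.989 CPM in WT_HDM, against 1.20 to 1.86 CPM in WT_saline. The libraries again did not overlap. The log2 change was -1.69 ± 0.30 in mice labelled knockout (edgeR adjusted p = 0.0001186) and -1.19 ± 0.31 in wild type (adjusted p = 0.007349).

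The chemokines of the alpha granules moved in opposite directions. Ppbp, which encodes the precursor of the neutrophil-attracting peptide NAP-2, had 11.6, 9.79, 12.4, 9.48 and 5.98 CPM in KO_HDM, against 22.5, 33.7, 10.1, 37.7 and 28.9 CPM in KO_saline. In wild type it had 7.79, 5.76, 6.45, 5.38 and 7.87 CPM with HDM, against 17.4, 14.0, 19.2, 13.3 and 17.3 CPM with saline. The only overlap was KO_saline replicate 3, which lay below KO_HDM replicates 1 and 3. Ppbp changed by -1.43 ± 0.26 in mice labelled knockout (edgeR adjusted p = 0.0001474) and by -1.29 ± 0.26 in wild type (adjusted p = 0.001328).

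Pf4, platelet factor 4, had 31.7, 26.8, 35.5, 55.2 and 33.4 CPM in KO_HDM, against 7.18, 11.4, 8.58, 10.2 and 10.9 CPM in KO_saline. WT_HDM libraries had 22.2, 21.8, 16.0, 12.2 and 8.66 CPM, against 5.46, 8.19, 8.03, 6.76 and 6.83 CPM in WT_saline. Every HDM library exceeded every saline library of its label, and every KO_HDM library exceeded every WT_HDM library. HDM raised Pf4 3.78-fold in mice labelled knockout (log2 change 1.92 ± 0.23, edgeR adjusted p = 2.461e-06) and 2.28-fold in wild type (1.19 ± 0.24, adjusted p = 0.0009919).

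Counted together without Clec1b, P2rx1 and Gp6, 6 genes could be read for HDM within a label, and all 6 were called in both comparisons, Pf4 higher and the other 5 lower. Over all genes tested, HDM changed 51.9% in mice labelled knockout, 26.2% higher and 25.7% lower, and 30.1% in wild type, 13.6% higher and 16.5% lower. The median log2 change of these 6 genes was -1.55 in mice labelled knockout and -1.13 in wild type, beside 0.02 and -0.02 over all genes tested. HDM and saline libraries did not overlap for 3 of the 6 lower and 1 higher in mice labelled knockout, where 43.9% of all genes did not overlap, 21.8% lower and 22.1% higher. In wild type 4 were lower and 1 higher without overlap, against 11.6% of all genes, 5.64% lower and 5.93% higher. Averaged over labels, 7 of the 8 genes other than Gp6 were called, 5 lower, and Clec1b and Pf4 higher, where 57.8% of all genes were called, 29.7% lower and 28% higher.

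**Figure D2:**
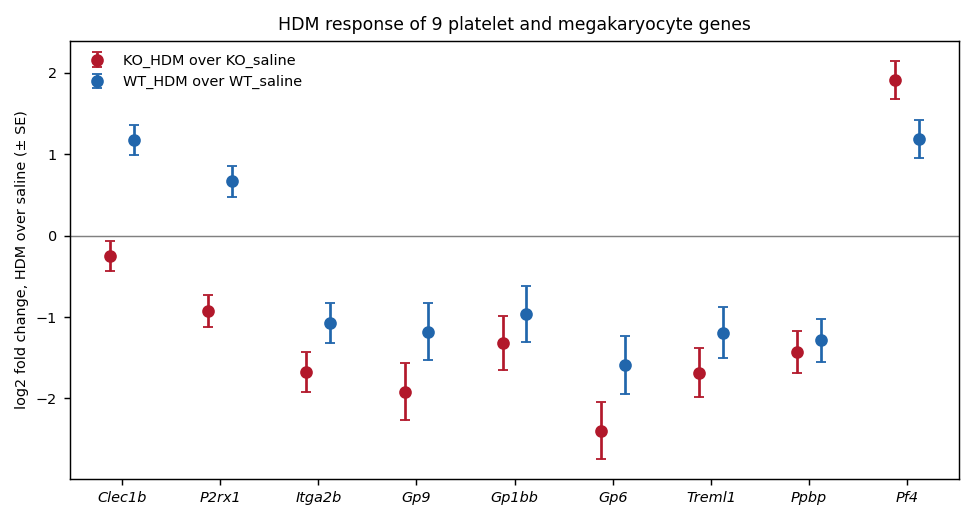
Log2 fold change of HDM over saline with its SE for each of the 9 genes, in mice labelled knockout and in wild type. The 6 genes from Itga2b to Ppbp lie below 0 and Pf4 above 0 under both labels, while Clec1b and P2rx1 lie above 0 in wild type and below 0 in mice labelled knockout.

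Red blood cell markers moved with the genes that fell with HDM. Their summed level over the 13 markers in the table was 2870 to 4911 CPM in KO_HDM, 9487 to 19708 in KO_saline, 1233 to 2009 in WT_HDM and 2512 to 6066 in WT_saline. With HDM, 11 of 12 tested were lower in mice labelled knockout and 9 of 12 in wild type, beside 25.7% and 16.5% of all genes. With the mean log2 level of these markers as a covariate, Pf4 alone of the 6 genes tested for HDM was called. It changed by 2.09 in mice labelled knockout (edgeR adjusted p = 0.01069) and 1.28 in wild type (adjusted p = 0.0173). The 6 falling genes kept their direction, at -0.44 to -1.44 in mice labelled knockout and -0.59 to -1.11 in wild type. Those other than Gp6, which has no test, had edgeR adjusted p from 0.1315 to 0.6184. The covariate itself differs between the groups, and the part of blood content in the falls was not tested further. The difference between HDM responses was -1.34 for Clec1b and -1.63 for P2rx1 in that fit, close to -1.43 and -1.59 without it.

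Endothelial markers also fell, 9 of 10 under each label. Over all genes tested, 25.7% were lower and 26.2% higher with HDM in mice labelled knockout, and 16.5% lower and 13.6% higher in wild type. Summed endothelial levels were 1322 to 2602 CPM in KO_HDM, 4355 to 4569 in KO_saline, 1680 to 3070 in WT_HDM and 3134 to 4753 in WT_saline. The part of endothelium in the falls was not tested. Lung epithelium markers were lower in 6 of 6 in mice labelled knockout, with a median log2 change of -1.14, and in 2 of 6 in wild type, with a median of -0.53. Their summed level was 9321 to 15576 CPM in KO_HDM, 28963 to 42108 in KO_saline, 9905 to 22772 in WT_HDM and 22615 to 33379 in WT_saline, and their part in the falls was not tested either. Monocyte and macrophage markers moved in part with Pf4, which mouse macrophages can also express. Their summed level was 957 to 1316 CPM in KO_HDM, 592 to 864 in KO_saline, 704 to 1025 in WT_HDM and 581 to 735 in WT_saline, with 7 of 11 higher and 2 lower with HDM in mice labelled knockout, and 3 higher and 1 lower in wild type. C1qa, a complement gene of tissue macrophages, rose by 2.40 in mice labelled knockout (edgeR adjusted p = 9.26e-07) and 1.30 in wild type (adjusted p = 0.001063) on the log2 scale. Marco, of the same list, changed by -2.80 in mice labelled knockout (edgeR adjusted p = 0.003813) and -2.15 in wild type (adjusted p = 0.03118). Lyve1 changed by -1.71 in mice labelled knockout (edgeR adjusted p = 1.964e-05). Neutrophil markers were higher with HDM in 3 of 8 tested in mice labelled knockout and in 1 of 8 in wild type, with none lower. These counts are near the 26.2% and 13.6% of all genes called higher. The part of macrophages and neutrophils in the Pf4 rise was not tested. Kupffer cells of the liver are known to carry Clec1b in mice, and their defining marker Clec4f was at 0.487 CPM or less in all 20 libraries. The list of 7 markers of Kupffer cells and liver sinusoids, several of which other tissues carry, summed to 12.1 to 24.1 CPM in KO_HDM, 9.35 to 41.8 in KO_saline, 7.72 to 31.3 in WT_HDM and 8.72 to 69.0 in WT_saline. Of its 5 genes tested, Oit3 was higher with HDM in mice labelled knockout, by 0.93 on the log2 scale (edgeR adjusted p = 0.03905), Clec4g was lower, at -1.27 (adjusted p = 0.0113), and none was called in wild type. Hepatocyte markers summed to 31.3 to 111 CPM in KO_HDM, against 1.24 to 2.38 in KO_saline, 0.680 to 3.05 in WT_HDM and 1.33 to 2.07 in WT_saline; their part in the KO_HDM levels was not tested.

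**Figure D3:**
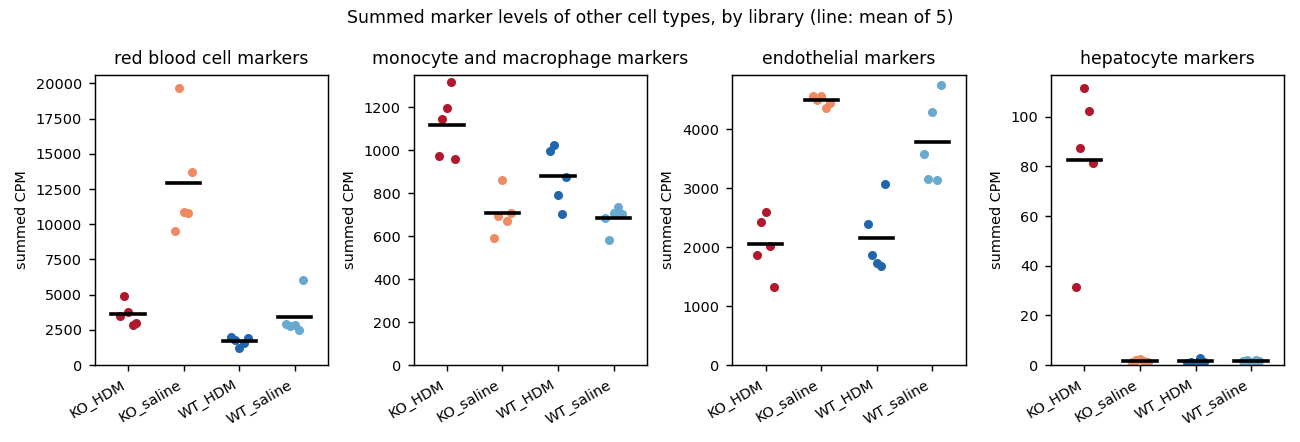
Summed CPM of markers of red blood cells, monocytes and macrophages, endothelium and hepatocytes in every library (points; line, mean of 5; axes start at 0). Red blood cell sums are highest in KO_saline, endothelial sums are lower in both HDM groups, macrophage sums average highest in KO_HDM, and hepatocyte sums are high in KO_HDM alone.

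Genotype labels were then compared within a treatment. Under saline none of the 7 tested genes was called by edgeR, where 0.908% of all genes were. None of the 9 was free of overlap between the labels, beside 3.06% of all genes, 1.91% higher and 1.14% lower. At an unadjusted p under 0.05 there were 3, Gp6, Treml1 and Ppbp, and DESeq2 and limma voom called none of the 7. Red blood cell markers were higher in 12 of 12 tested, of which Rhag had entered the test through libraries labelled knockout and is not read as a test. The fitted values of all 9 were above 0, with a median log2 change of 0.51 beside -0.03 over all genes. That direction did not hold with the red blood cell covariate, under which 7 of the 9 lay below 0, from -0.04 for Clec1b to -1.07 for Treml1. Ppbp, at 0.71 ± 0.25 (edgeR adjusted p = 0.2132), was called without KO_saline replicate 3, at 0.91 (adjusted p = 0.01821). That library was the lowest of its group for 8 of the 9 genes. Its red blood cell sum, 10852 CPM, was the median of its group. KO_saline replicate 2, with the highest sum of the group, 19708 CPM, was the highest for 5 of the 9. The part of blood content in these ranks was not tested.

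Under HDM, Pf4 was the only gene called of the 7, 2.26-fold higher in KO_HDM than in WT_HDM (log2 change 1.18 ± 0.23, edgeR adjusted p = 0.003828), where 6.67% of all genes were called, 4.79% higher and 1.88% lower. Of 11 macrophage markers 4 were higher and 1 was lower, and 12 of 12 red blood cell markers were higher. Neutrophil markers were higher in 5 of 8 with none lower, with a median log2 change of 1.27 and sums of 331.2 to 631.2 CPM in KO_HDM and 189.4 to 365.2 CPM in WT_HDM. The part of these cells in the Pf4 difference was not tested. Rhag of the red blood cell list and Ngp of the neutrophil list entered the test through libraries labelled knockout. Their calls, counted above, are not read as tests. With the red blood cell covariate the Pf4 change was 0.99 and did not pass (edgeR adjusted p = 0.5164). Itga2b, at 3.93 to 8.11 CPM in KO_HDM and 6.14 to 8.08 CPM in WT_HDM, changed by -0.12 ± 0.25 (adjusted p = 0.8185). Of the 7 genes, Pf4 alone did not overlap between the groups, where 7.01% of all genes did not, 4.8% higher and 2.21% lower.

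Averaged over treatments, 3 of 9 genes were called by label, beside 5.09% of all genes, 3.1% higher and 1.99% lower. Pf4 was higher in the libraries labelled knockout by 0.81 ± 0.16 (edgeR adjusted p = 0.006676) and Ppbp by 0.64 ± 0.18 (adjusted p = 0.04837). Clec1b was lower, at -0.45 ± 0.13 (edgeR adjusted p = 0.04902). For Clec1b the contrast shares its libraries and their spread with the difference that chose the gene. Its lower level came from the HDM libraries alone, at -1.17, against 0.26 under saline. The calls of Clec1b and Ppbp lay just inside the threshold: leaving out a library ended the call in 15 of 20 fits for Clec1b and 14 of 20 for Ppbp. Pf4, too, lost its call with the red blood cell covariate, at 0.59 (adjusted p = 0.9986). Neutrophil markers were higher by label in 6 of 8 in this comparison and red blood cell markers in 12 of 12. Ngp and Rhag, counted here, had entered the test through libraries labelled knockout, so their calls are not read as tests.

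Ratios within a library remove what the numerator and denominator share, and since CPM is not corrected for length only their change between groups is read. The ratio of Pf4 to Ppbp had a median of 2.87 in KO_HDM (2.74 to 5.82), against 0.338 in KO_saline (0.270 to 0.852). In wild type it was 2.48 in WT_HDM (1.10 to 3.79), against 0.418 in WT_saline (0.314 to 0.583). HDM libraries lay above all saline libraries under both labels. The pair was named after Pf4 was seen to rise and Ppbp to fall, so this separation restates those changes. Treml1 moved with Itga2b, with a median ratio of 0.123 in KO_HDM (0.119 to 0.129), 0.126 in KO_saline (0.110 to 0.139), 0.0891 in WT_HDM (0.0577 to 0.132) and 0.109 in WT_saline (0.0622 to 0.128), and the groups overlapped.

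The ratio of Clec1b to Itga2b was higher with HDM under both labels, unlike Clec1b itself. In mice labelled knockout it rose through the fall of Itga2b, with log2 changes of -0.25 for Clec1b and -1.67 for Itga2b. In wild type both genes contributed, at 1.17 and -1.07. The median of this ratio was 0.806 in KO_HDM (0.592 to 1.26), against 0.275 in KO_saline (0.217 to 0.402). In wild type it was 1.66 in WT_HDM (0.932 to 1.99), against 0.330 in WT_saline (0.258 to 0.571). HDM and saline libraries did not overlap under either label. For P2rx1 over Itga2b it was 0.231 in KO_HDM (0.191 to 0.480), against 0.189 in KO_saline (0.0965 to 0.221), which overlapped. In wild type it was 0.510 in WT_HDM (0.430 to 0.653), against 0.160 in WT_saline (0.0766 to 0.262), which did not.

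**Figure D4:**
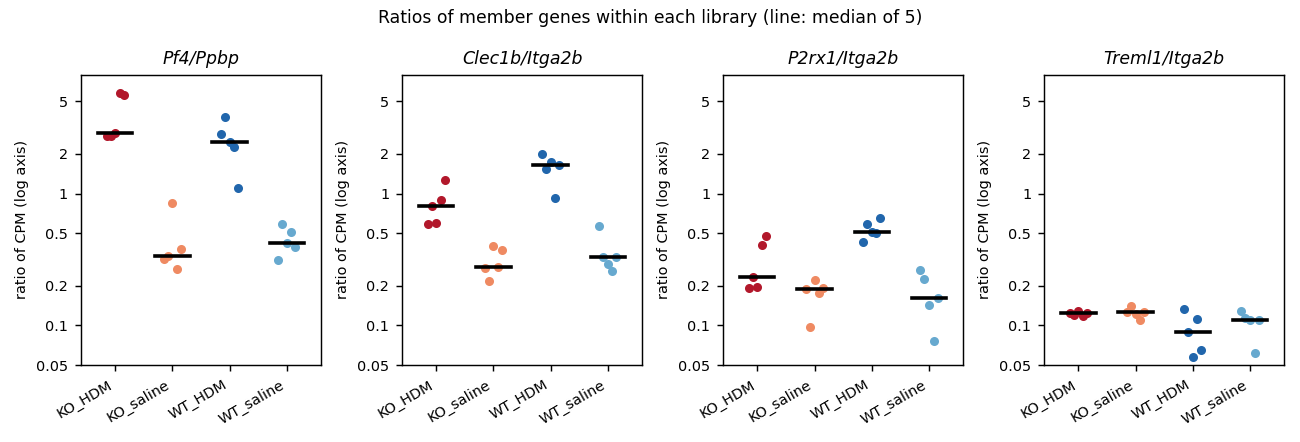
Ratio of CPM within each library for 4 pairs of genes (log axis, the same range in each panel; points are libraries, lines medians of 5). Pf4/Ppbp and Clec1b/Itga2b are higher in HDM than in saline libraries under both labels, P2rx1/Itga2b is clearly higher in WT_HDM alone, and Treml1/Itga2b is near 0.1 in all 4 groups.

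Profiles over the 20 libraries were compared by the root mean square difference of centred log2 CPM. Clec1b and P2rx1 were chosen for a shared pattern, so the distance of 0.43 between them follows from the choice and is a description, as are the distances of 1.01 to 1.19 from Clec1b to the other 7 and 0.82 to 1.20 from P2rx1. Among 13058 genes searched, the profiles nearest to Clec1b were those of Ms4a8a (0.346), Mtmr7 (0.348), Banp (0.359), Pcyox1l (0.367) and Sgpp2 (0.371), none of which is in the platelet lists. Ms4a8a, for example, averaged 7.81 ± 0.843 CPM in KO_HDM, 5.73 ± 0.894 in KO_saline, 12.3 ± 4.00 in WT_HDM and 5.60 ± 1.03 in WT_saline (SD, n = 5 each). Nearest to P2rx1 were Wdr92 (0.309), Atp6v0a4 (0.321), Zbtb49 (0.335), Fam78b (0.365) and Trim68 (0.372). Both genes themselves varied by 0.525 and 0.485 on this scale, so these matches leave much of each profile unshared.

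Mean profiles were searched as well. Averaging lowers the noise of a profile, so these distances are not set against those of Clec1b and P2rx1. For the mean of the 7 genes other than Clec1b and P2rx1, the profile itself varied by 0.598. The nearest genes were Mfsd2b (0.241), G6b (0.288), Ccdc92 (0.301), Cdr2 (0.315) and Epb4.1 (0.324). The mean of the 6 genes that fell, which leaves out Pf4, was searched after their values were seen. Nearest were Alox12 (0.204), the platelet lipoxygenase, Tubb1 (0.273), the beta tubulin of the platelet ring, Gp5 (0.304), a further subunit of the von Willebrand factor receptor, G6b (0.305) and Smad6 (0.353), where the profile itself varied by 0.779. Alox12 averaged 4.52 ± 0.774 CPM in KO_HDM and 14.1 ± 3.88 in KO_saline, and 4.17 ± 1.07 in WT_HDM and 10.6 ± 2.06 in WT_saline (SD, n = 5 each). It lies on chromosome 11 with 1 protein-coding gene between it and Alox15. Its HDM changes were -1.64 in mice labelled knockout (edgeR adjusted p = 4.194e-06) and -1.35 in wild type (adjusted p = 0.0001374). Within some groups the 6 genes also shared their extremes. KO_HDM replicate 5, the KO_HDM library with 166.8 CPM of Adipoq, was the lowest of its group for all 6, as was KO_saline replicate 3, and KO_saline replicate 2 was the highest for 4.

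Other platelet and megakaryocyte genes moved in both directions. Of 51 in the lists, 50 were in the table and 48 were tested. HDM raised 11 and lowered 17 in mice labelled knockout, and raised 8 and lowered 11 in wild type, beside 51.9% and 30.1% of all genes called. Their median log2 change was -0.29 in mice labelled knockout and -0.12 in wild type. Among receptors, 2 of 13 rose and 4 fell in mice labelled knockout, and 1 rose and 4 fell in wild type. Gp1ba, which binds von Willebrand factor, fell by 0.85 on the log2 scale in mice labelled knockout (edgeR adjusted p = 0.002339) and by 0.66 in wild type (adjusted p = 0.02396). Gp5 fell by 1.44 in mice labelled knockout (adjusted p = 0.0005411), and its wild-type change of -0.71 did not pass (adjusted p = 0.07911). P2ry12, the ADP receptor, which microglia and some macrophages also carry, rose by 0.99 in mice labelled knockout (adjusted p = 0.0002767) and changed by -0.11 in wild type (adjusted p = 0.7162).

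The cytoskeleton list fell for 3 of 6 genes under each label, with 1 higher in mice labelled knockout, where 51.9% of all genes were called, 25.7% lower, against 30.1% in wild type, 16.5% lower. Tubb1 fell by 2.05 in mice labelled knockout (edgeR adjusted p = 1.46e-06) and by 1.38 in wild type (adjusted p = 0.0002981), and Sdpr fell by 1.09 (adjusted p = 4.776e-05) and 0.77 (adjusted p = 0.00279) in the same order. In the list of signalling and lipid enzymes, 5 of 12 rose and 3 fell in mice labelled knockout, and 5 rose and 1 fell in wild type. The genes that rose are also used by leukocytes, and the part of leukocytes in these rises was not tested. Tbxas1, thromboxane synthase, averaged 45.4 ± 4.79 CPM in KO_HDM and 12.2 ± 1.06 in KO_saline, and 27.2 ± 6.61 in WT_HDM and 9.02 ± 1.30 in WT_saline (SD, n = 5 each). It rose by 1.90 in mice labelled knockout (edgeR adjusted p = 1.506e-08) and 1.59 in wild type (adjusted p = 3.974e-07), and Syk, the kinase used by Clec1b and Gp6, rose by 1.35 (adjusted p = 1.569e-06) and 0.90 (adjusted p = 0.0003626). Among granule and coagulation genes 1 of 8 rose and 1 fell under each label, a smaller share than over all genes. Srgn, a granule proteoglycan of many blood cells, rose by 0.95 in mice labelled knockout (adjusted p = 6.85e-05) and 0.58 in wild type (adjusted p = 0.01011).

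Megakaryocyte regulators fell for 6 of 9 genes and rose for 2 in mice labelled knockout, and fell for 2 and rose for 1 in wild type, beside 25.7% lower and 26.2% higher over all genes in mice labelled knockout and 16.5% lower and 13.6% higher in wild type. The 3 of 9 called in wild type is near the 30.1% of all genes. Meis1, a homeobox transcription factor of blood progenitors and megakaryocytes, fell by 0.96 in mice labelled knockout (edgeR adjusted p = 0.0001157) and by 0.69 in wild type (adjusted p = 0.005084). Gata1, a transcription factor of red blood cell, megakaryocyte and mast cell lineages, had 0.323 to 0.487 CPM in KO_HDM, against 0.718 to 1.41 CPM in KO_saline, and 0.512 to 0.865 CPM in WT_HDM, against 0.363 to 0.585 CPM in WT_saline. Its log2 change with HDM was -1.43 ± 0.24 in mice labelled knockout and 0.58 ± 0.25 in wild type, a difference of -2.01 ± 0.34 (knockout minus wild type). Gata1 exceeded the filter's level in all 5 KO_saline and all 5 WT_HDM libraries, in 1 WT_saline library and in no KO_HDM library. It thus entered the test through the groups in which it was high, and its changes, although counted among the calls above, are given without a test. Gata1 aside, no gene of the 48 was called for a difference in HDM response by label, where 1.24% of all genes were called and 0.235% called lower.

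**Figure D5:**
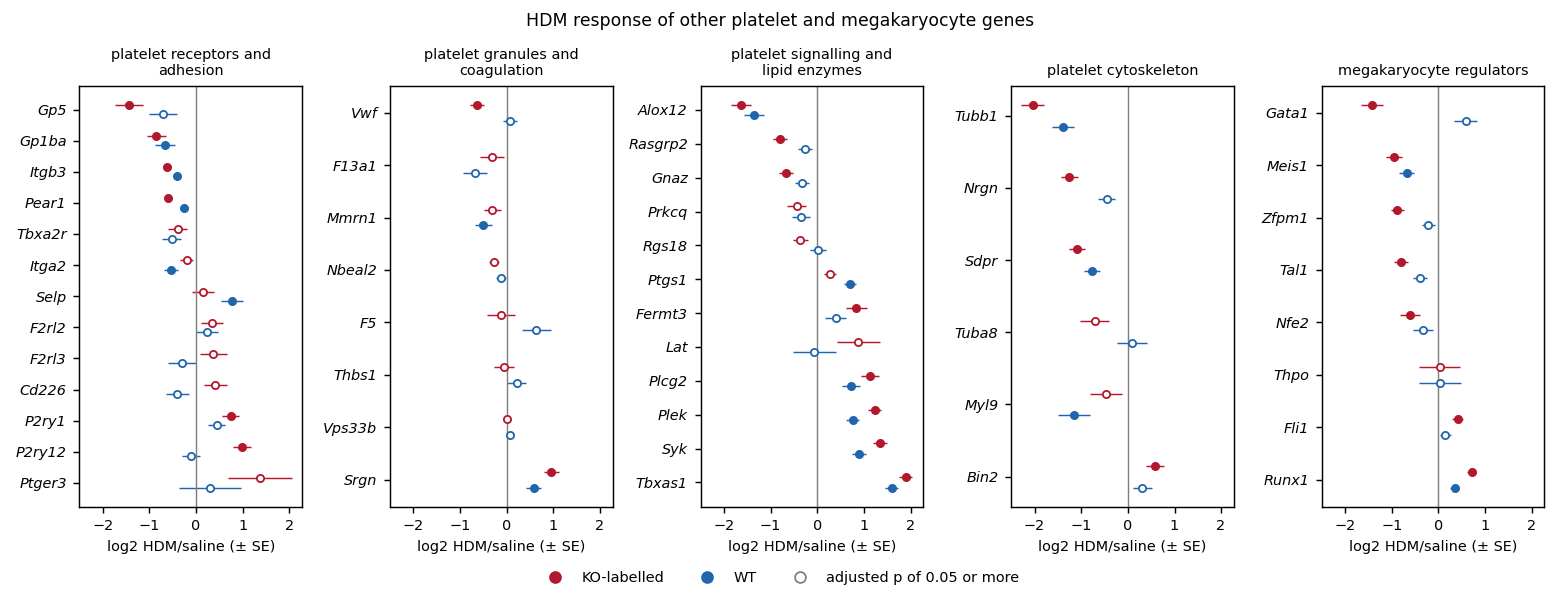
Log2 fold change of HDM over saline with its SE for most of the other platelet and megakaryocyte genes, 1 panel per list, in mice labelled knockout and in wild type; open points did not pass an adjusted p of 0.05. Tubb1, Alox12 and Meis1 lie below 0 under both labels, Tbxas1, Syk and Plek lie above 0, and the 2 points of Gata1 lie on opposite sides of 0.

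Pdpn, which encodes the podoplanin bound by Clec1b, averaged 189.6 ± 44.3 CPM in KO_HDM and 177.3 ± 15.3 in KO_saline, and 166.6 ± 23.0 in WT_HDM and 145.4 ± 26.3 in WT_saline (SD, n = 5 each), and was not called for HDM under either label. Entpd1, an enzyme that breaks down the ATP sensed by P2rx1, was not called either. Fcer1g, the signalling chain paired with Gp6 and with receptors of many myeloid cells, averaged 71.4 ± 17.2 CPM in KO_HDM and 26.9 ± 3.05 in KO_saline, and 33.7 ± 8.16 in WT_HDM and 24.6 ± 3.94 in WT_saline (SD, n = 5 each). It rose by 1.41 in mice labelled knockout (edgeR adjusted p = 2.564e-06), and its wild-type change of 0.45 did not pass (adjusted p = 0.05376). Itgb3, the partner chain of Itga2b, which endothelium also carries, averaged 46.4 ± 4.08 CPM in KO_HDM and 71.7 ± 7.43 in KO_saline, and 51.2 ± 4.13 in WT_HDM and 67.8 ± 4.70 in WT_saline (SD, n = 5 each), and fell by 0.63 in mice labelled knockout (adjusted p = 5.462e-06) and by 0.41 in wild type (adjusted p = 0.001283). Cxcr3, a chemokine receptor to which the human form of Pf4 can bind, rose by 1.04 in mice labelled knockout (adjusted p = 0.009278). It was 1.31 higher in KO_HDM than in WT_HDM (adjusted p = 0.01789). Cxcr2, a chemokine receptor of the neutrophil list, rose by 0.51 in mice labelled knockout (edgeR adjusted p = 0.03407).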

How the data were processed

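Whole-lung RNA-seq gave 20 libraries in 4 groups of 5, taken from the genotype and treatment labels. Per the labels' protocols, frozen lungs gave oligo-dT selected, dUTP strand-specific libraries, with ribosomal RNA depletion also named. Per the submitters' processing notes, Bowtie2 2.1.0 and RSEM 1.2.15 were used, and the build named is hg38, a human build, beside mouse gene symbols; the build used is therefore not known. What the authors deposited is a table of RSEM expected counts without normalization. RSEM divides reads that match several genes.

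Expected counts were rounded and scaled with TMM factors. The edgeR 4.0.16 filter filterByExpr by group kept 16193 of 24054 genes. The robust quasi-likelihood test in R 4.3.3 fitted a mean per group over all 20 libraries (16 residual degrees of freedom), with Benjamini-Hochberg adjustment over the tested genes of each of 7 comparisons: HDM within each label, label within each treatment, their interaction, and HDM and label each averaged over the other. SE is the absolute log2 change divided by the square root of F. Since the interaction chose Clec1b and P2rx1, these have no p in the 4 simple comparisons, and none of the 9 genes has one for the interaction. Gp6 and Gata1, which passed the filter through groups in which they were high, are given without a p for HDM. The p-values rest on the biological replicates named in the labels. CPM uses TMM-scaled totals. With 12573113 to 23305673 counts per library, a level of 0.507 CPM is about 10 counts.

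The 9 genes and all lists were chosen with earlier results of these data known, the lists from textbook knowledge. Named genes are Alox15, the 9 genes, up to 4 called genes of each list and comparison with the largest change, list genes that bear directly on a result (ligands, partners, defining markers), and the 5 nearest profiles. Profiles were compared over 13058 tested genes with mean log2 CPM of 1 or more, predicted genes left out; the mean of the 6 falling genes was added after their values were seen. G6b, the overlapping genes and the pairs used for ratios were named after values were seen. Mpig6b was not matched to a row by symbol, and Ly6g6f and Gfi1b did not pass the filter. The values of 1 regulator are not reported here. Promoters and gene order are from RefSeq, GRCm38.p6; all 9 genes matched. Alternatives used other scaling factors and filters, DESeq2 1.42.0, limma voom (limma 3.58.1), the 10 compared libraries alone, a replicate block, a stricter threshold, a red blood cell covariate, and fits without each library or without the libraries high in Adipoq. The edgeR steps were tested on simulated data.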

Additional observations from a re-analysis of the deposited data

Results flagged for a closer look

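The HDM effect on P2rx1 pointed in opposite directions: all 5 KO_HDM libraries lay below all 5 KO_saline libraries, and all 5 WT_HDM libraries lay above all 5 WT_saline libraries, a log2 difference of -1.59. The gene was chosen for this difference, which was not tested. Gp6 in WT_saline replicate 3 stood apart from the other 4 libraries of its group, at 1.22 CPM, with a gap to the next library of 0.741 of the group's range, where 0.71 is the 95% limit for 5 values. It was the only one of 36 groups examined to do so, and chance marks about 1 in 20.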

How the results depend on the processing

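Of 2027 values of the 9 genes under alternatives, 1909 kept direction and side of the threshold, 78 no longer passed, 1 newly passed, 38 changed sign and 1 moved by more than its spread.

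The red blood cell covariate had the widest effect. Of the values that changed sign, 18 did so under it. By label under saline these were Clec1b (-0.0361), Itga2b (-0.64), Gp9 (-1.06), Gp1bb (-0.11), Gp6 (-0.79), Treml1 (-1.07) and Ppbp (-0.88), and under HDM Gp1bb (-0.23), Treml1 (-0.99) and Ppbp (-0.55). Averaged over treatments they were Itga2b (-0.77), Gp9 (-1.23), Gp1bb (-0.17), Gp6 (-0.95), Treml1 (-1.03) and Ppbp (-0.71), and for the interaction Treml1 (0.081) and Ppbp (0.33). Among the other genes Nfe2 (-0.48) by label averaged and Vwf (0.0934) for HDM averaged changed sign with it. Further changes of sign lay close to 0. Gp9 by label averaged was -0.0121 with upper quartile factors, -0.00851 with library size alone, -0.0040 with a CPM of 1 in 5 libraries and -0.12 without the libraries high in Adipoq, where Gp6 by label under HDM was 0.12. Leaving out each library gave -0.102 to 0.0900 for Gp9 by label averaged, -0.236 to 0.00965 for Itga2b and -0.224 to 0.0878 for Gp6 by label under HDM, and interactions of -0.542 to 0.00671 for Gp1bb and -0.348 to 0.0165 for Ppbp. None of the 9 genes changed sign for HDM within a label or averaged over labels. The covariate left 1 of the 7 genes without Clec1b and P2rx1 called for HDM in mice labelled knockout, 1 in wild type and 0 by label under HDM. Of all 9, it left 1 called for HDM averaged and 0 by label averaged. Other platelet genes called with it were 4 for HDM in mice labelled knockout, 6 in wild type, 9 averaged, and 0 in each label comparison and the interaction. All genes called with it were 1246, 1315 and 1736 for HDM in the same order, 2 by label under saline, 17 under HDM, 3 averaged, and 18 for the interaction. The covariate itself differs between the groups; the cause of the losses was not tested.

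At an adjusted p under 0.01, all genes called were 2746 for HDM in wild type, 91 by label under saline, 398 under HDM, 248 averaged, and 32 for the interaction; other platelet genes were 12 for HDM in wild type, 0 and 2 by label under saline and HDM, and 1 averaged; and 1 of the 9 was called by label averaged. DESeq2 called 327 genes by label under saline, 1506 averaged and 608 for the interaction, and 2, 5 and 4 other platelet genes. Other platelet genes by label under saline were 0 with a CPM of 1 in 5 libraries, with the 10 libraries alone and without the libraries high in Adipoq. For the interaction they were 2 with library size alone and with limma voom, and 0 without the libraries high in Adipoq, where all genes called were 322 with library size alone and 103 without those libraries. The 10 compared libraries alone gave 2854 genes for HDM in wild type. With limma voom 1 of the 9 was called by label averaged over treatments. The causes were not tested, beyond the fewer libraries or stricter threshold named.

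Leaving out each library gave, of the 7 genes with Gp6 included, 7 called for HDM in mice labelled knockout and 6 to 7 in wild type, 0 to 1 by label under saline (1 without KO_saline replicate 3), 1 under HDM, and, of 9, 8 for HDM averaged and 1 to 3 by label averaged. The last was 1 without KO_HDM replicates 1, 2, 3 or 4, KO_saline replicates 2 or 5, WT_HDM replicate 3, or WT_saline replicates 1, 2 or 4. The HDM counts include Gp6, whose HDM changes carry no test. The counts of other platelet genes for HDM in mice labelled knockout and for the interaction include Gata1, which carries none either. Other platelet genes were 27 to 31 and 15 to 25 for HDM, 32 to 38 for HDM averaged, 0 to 2 and 4 to 7 by label under saline and HDM (0 without KO_saline replicate 2, 2 without WT_HDM replicate 4), 2 to 5 averaged (5 without KO_HDM replicate 5 or WT_saline replicate 4) and 1 to 3 for the interaction (3 without WT_saline replicate 5; 2 without KO_HDM replicate 5, KO_saline replicates 3 or 4, or WT_HDM replicate 1). All genes called were 7614 to 9017 and 3691 to 5896 for HDM, 8812 to 10043 averaged, 102 to 180 by label under saline, 576 to 1396 under HDM (576 without KO_HDM replicate 4, 663 without replicate 3), 497 to 1285 averaged (1285 without KO_HDM replicate 5; 497 to 538 without KO_HDM replicates 2 or 3, KO_saline replicates 3 or 5, or WT_HDM replicate 3) and 79 to 260 for the interaction (79 to 130 without KO_HDM replicates 3 or 4, KO_saline replicates 2, 3 or 5, WT_HDM replicate 4 or WT_saline replicate 1). The HDM interaction was -1.61 to -1.29 for Clec1b and -1.73 to -1.43 for P2rx1.

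Replicate numbers were not used to pair the samples, since not every same-numbered pair correlated over 0.1. Deviations of same-numbered libraries correlated from -0.457 to 0.506 (mean 0.0845), with 17 of 30 pairs over 0.1, and those of different numbers from -0.703 to 0.720 (mean -0.0185), with 41 of 120 over 0.1. No library was nearest to its own number in every other group. With the replicate block, 7 of the 7 were called for HDM in mice labelled knockout and 6 in wild type, where Gp1bb did not pass (edgeR adjusted p = 0.05231). By label, 0 were called under saline and 1 under HDM. Of 9, 8 were called for HDM averaged and 1 by label averaged. Gp6, whose HDM changes carry no test, is among those counted for HDM.

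Depth limits Gp6 most, with 3 to 8 counts per HDM library.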
